A study of Mus musculus with 13 samples.

Results

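NCOR1 occupancy in the liver of control mice was compared between dexamethasone and vehicle. The sites were chosen by position alone. Each peak of the dexamethasone list was paired with the vehicle peak sharing at least 1 bp with it, and an unpaired peak counted as dexamethasone-only or vehicle-only when no peak of the other list lay within 500 bp. The lists held 37700 and 39458 peaks, which formed 50626 sites of the 217044 peaks in the 7 lists of the series. Of these sites, 26532 were shared, 9702 were dexamethasone-only (25.7% of that list) and 11186 were vehicle-only (28.3% of theirs). The remaining 1466 dexamethasone and 1740 vehicle peaks had no partner but lay within 500 bp of one, and were put in no class.

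Livers came from male mice whose genotype is labelled GFP, named control in the titles. The control mice received saline vehicle or dexamethasone at 1 mg/kg into the peritoneum at zeitgeber time 8 and were killed 2 h later. The NCOR1 antibody was raised in rabbit to a fragment spanning residues 1944 to 2453. The dexamethasone list pools 2 libraries and the vehicle list is 1 library, which leaves every value without a replicate error, and the drug and the difference between single libraries cannot be told apart. Glucocorticoid receptor (GR) lists of control liver, pooled from 2 libraries in each state, and the NCOR1 list of 1 vehicle-treated dKO library, labelled CRE, were used beside the NCOR1 sites. The strain, the age of the mice and the way GFP or Cre was delivered are not given in the sources used here.

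NCOR1 is a corepressor scaffold. It binds nuclear receptors and other transcription factors and carries the histone deacetylase HDAC3 to chromatin, and in liver it is best known for holding down lipid-synthesis and clock genes together with the REV-ERB receptors. Dexamethasone is a synthetic ligand of GR, the receptor through which glucocorticoids turn on fasting genes and turn down inflammatory ones. ChIP-seq counts the DNA fragments precipitated with a protein, and a peak is a place where these exceed the background.

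The dexamethasone list rested on 36914937 tags and the vehicle list on 17773927, with 6.38% and 8.52% of tags in peaks. All tag counts below are the authors' normalized tag counts, scaled to 10000000 tags per list. The tag threshold of the peak caller stood at 4.33 on this scale in the dexamethasone list and 6.19 in the vehicle list, and both lists asked for at least 4-fold more tags than the input and than the surrounding 10 kb. The input rule removed 35.0% of candidate dexamethasone peaks and 16.1% of candidate vehicle peaks. These fold enrichments, given below for single peaks, are the authors' own values. Absence from a list therefore means not called under those limits. Peaks of the dKO list lay under 24.2% of shared sites, and the dKO tag count is given below for some of them, so a site named without one may still be in the dKO list. As a check of the labelled tissue, 29 of 30 plasma protein genes of hepatocytes had a site within 100 kb, against 5 of 19 genes of Kupffer cells and leukocytes, 19 of 25 endothelial, stellate and cholangiocyte markers, 14 of 22 neuronal genes and 12517 of all 21900 genes. The Kupffer cell and leukocyte genes had only 4 shared sites, none raised or lowered, and the defining Kupffer cell markers Vsig4, Timd4, Cd5l, Marco and C1qa had no site, while Clec4f had 1.

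Promoters are shown first, because there the sequence under the peak could be read. The reference tables give the 250 bases before and 50 bases after the starts of 17492 of 21900 protein-coding genes (RefSeq, GRCm38.p6, the assembly that mm10 names). A NCOR1 peak covered at least 100 bp of such a window for 3742 genes. Vehicle-only peaks did so at 1000 genes (5.72%) and dexamethasone-only peaks at 475 (2.72%). Raised shared sites did so at 42 genes (0.24%) and lowered ones at 54 (0.309%). Shared sites neither raised nor lowered did so at 929 genes (those called steady below) and 1291 genes (the others). The classes differ in size, with 11186 vehicle-only, 9702 dexamethasone-only, 1215 raised and 1269 lowered sites. The gene counts therefore cannot be compared directly between classes. Raised and lowered stand for a ratio of dexamethasone over vehicle at least 2-fold above or below the median shared site, which held for 4.58% and 4.78% of shared sites. Each sequence below is the part of a promoter that lies both under the NCOR1 peak and before the start, 5' to 3' on the gene's strand, and capitals mark a motif match on either strand. They were chosen, after their values were seen, as examples from each class.

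Insig2 and Cyp3a11 carried raised shared sites at their promoters. Insig2 makes an endoplasmic reticulum protein that holds back lipid synthesis, and Cyp3a11 is a drug- and steroid-metabolizing cytochrome P450. The Insig2 stretch (chr1:121332590-121332780, minus strand) held 3 CCAAT boxes, and the Cyp3a11 stretch (chr5:145879855-145879991, minus strand) held the HNF4 site searched, CAAAGTCCA.
Insig2: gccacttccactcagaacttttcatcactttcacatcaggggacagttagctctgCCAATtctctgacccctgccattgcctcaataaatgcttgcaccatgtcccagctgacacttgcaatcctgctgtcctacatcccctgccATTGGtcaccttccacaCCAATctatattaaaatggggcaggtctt
Cyp3a11: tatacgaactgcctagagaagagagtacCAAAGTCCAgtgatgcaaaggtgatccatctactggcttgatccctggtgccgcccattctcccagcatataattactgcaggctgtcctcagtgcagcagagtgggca

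At Insig2 the NCOR1 tag count was 65.4 under dexamethasone and 32.6 under vehicle, and a GR peak of 52.3 was called there under dexamethasone only. At Cyp3a11 the NCOR1 tag count was 39.3 under dexamethasone and 11.3 under vehicle, with no GR peak in either state. Both sites were higher with the drug. Over the local 10 kb, Insig2 stood at 6.44-fold under dexamethasone and 4.28-fold under vehicle, and Cyp3a11 at 4.97- and 4.31-fold. The limit for a call was 4-fold. A second Insig2 start was covered by a vehicle-only peak of 28.1 tags. Cyp3a genes are near-identical in places, so reads at Cyp3a11 may be shared with its relatives.

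Apoa2 and Mlxipl carried lowered sites. Apoa2 encodes an apolipoprotein of high-density lipoprotein, and Mlxipl encodes ChREBP, the carbohydrate-sensing factor that turns on glycolytic and lipogenic genes. The Apoa2 stretch (chr1:171224904-171225053, plus strand) held the forkhead site TGTTTAC, and the Mlxipl stretch (chr5:135089712-135089889, plus strand) held a CCAAT box and the E-box CACGTG.
Apoa2: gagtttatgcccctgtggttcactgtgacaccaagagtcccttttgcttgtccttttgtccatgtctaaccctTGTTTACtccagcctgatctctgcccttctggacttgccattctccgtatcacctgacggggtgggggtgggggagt
Mlxipl: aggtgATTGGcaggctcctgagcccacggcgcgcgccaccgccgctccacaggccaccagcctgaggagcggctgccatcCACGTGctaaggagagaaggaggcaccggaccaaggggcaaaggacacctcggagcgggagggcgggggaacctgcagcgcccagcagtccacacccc

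The Apoa2 promoter had 37.1 NCOR1 tags under dexamethasone and 93.1 under vehicle, the Mlxipl promoter 13.3 and 46.1. GR peaks at both were of like height in the 2 states, 19.5 and 22.2 at Apoa2 and 5.83 and 5.82 at Mlxipl. At both, NCOR1 was higher under vehicle while GR differed little.

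Acot1 and Mt1 stand for promoters called in 1 state. Acot1, an acyl-CoA thioesterase of fatty acid metabolism, had a dexamethasone-only peak over chr12:84009252-84009450 (plus strand) with 2 matches to the C/EBP site TTGCNNAA and a CCAAT box. Mt1, a metallothionein gene that glucocorticoids turn on, had a vehicle-only peak over chr8:94178941-94179088 (plus strand) with a match to the glucocorticoid response element (ACA and TGT spaced by 3 free bases, with G 2 bases before and C 2 bases after).
Acot1: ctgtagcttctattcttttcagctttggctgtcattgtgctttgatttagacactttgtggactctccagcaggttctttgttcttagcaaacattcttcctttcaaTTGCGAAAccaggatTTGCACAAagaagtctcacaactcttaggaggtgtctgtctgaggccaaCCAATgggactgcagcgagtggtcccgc
Mt1: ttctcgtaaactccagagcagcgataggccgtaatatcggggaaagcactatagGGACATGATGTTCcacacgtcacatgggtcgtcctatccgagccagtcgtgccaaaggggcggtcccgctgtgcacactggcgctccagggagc

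Acot1 had 31.0 NCOR1 tags under dexamethasone, together with a GR peak of 21.8 in that state alone. Its local 10 kb enrichment was 5.82-fold, near the 4-fold limit, and the site was present in the dKO list at 10.9 tags. The nearest vehicle peak was 688 bp away, not far past the 500 bp limit. Mt1 had 69.5 NCOR1 tags under vehicle (10.3-fold over the local 10 kb) and its nearest dexamethasone peak was 7444 bp away, while GR was bound in both states at 173.3 (dexamethasone) and 148.0 (vehicle) tags. The Mt1 site was present in the dKO list at 10.6 tags. Of all 21263 promoter windows of protein-coding genes, 0.442% held a match to this response element, as did 3 of 1056 windows under vehicle-only peaks and 4 of 505 under dexamethasone-only peaks.

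The GR, C/EBP, forkhead, HNF4, CCAAT and E-box motifs were among 12 searched on both strands, and the shares given here were picked after all were seen. The HNF4 site lay in 2 of 44 windows under raised sites, 0 of 56 under lowered sites and 0.451% of all windows. The forkhead site TGTTTAC lay in 7 of 56 windows under lowered sites (12.5%, exact 95% interval 5.18 to 24.1%), in 3 of 44 under raised sites (6.82%, 1.43 to 18.7%) and in 3.0% of all windows. The C/EBP site TTGCNNAA lay in 10 of 44 windows under raised sites (22.7%, 11.5 to 37.8%), in 8 of 56 under lowered sites and in 10.2% of all windows. The CCAAT box, at 29.5% and 41.1% of windows under raised and lowered sites, was near the 38.2% of all windows. The intervals cover counting error only, and a match is a description of letters, not of a bound factor.

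After centring, 68.9% of the sites called in both states lay within 1.5-fold of the median ratio, and 8997 of 26532 were steady, within 0.25 of it on the log2 scale. Log2 tag counts of the 2 lists correlated with r = 0.80 across the 26532 shared sites, which share each site's base composition and accessibility, and 1 input library. Before centring, the median log2 ratio of dexamethasone over vehicle was -0.31 (0.804-fold). This shift goes with the lower share of tags in peaks and the deeper pool of the dexamethasone list, whose part in it was not tested, and ratios are given below relative to it. After centring, the middle 50% of sites lay between -0.39 and 0.38, and the SD over sites was 0.60.

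A centred ratio of 2-fold or more was reached by 1215 shared sites (4.58%), called raised, and 1269 shared sites (4.78%) were called lowered. The interval from tag counting alone lay wholly beyond the median for 1213 of the raised and 1263 of the lowered sites, but it holds no difference between animals. The split depends on the scale: without centring 404 sites were raised and 3231 lowered, and centred on the strongest 20% of shared sites 1588 were raised and 963 lowered. Just inside the raised limit lay a site near Casq1 (23.0 tags under dexamethasone, 14.3 under vehicle) and just outside it one near Shld1 (34.4 and 21.4). The corresponding lowered sites lay near Birc3 (6.23 and 15.5) and Tbc1d9b (12.1 and 30.1).

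**Figure D1:**
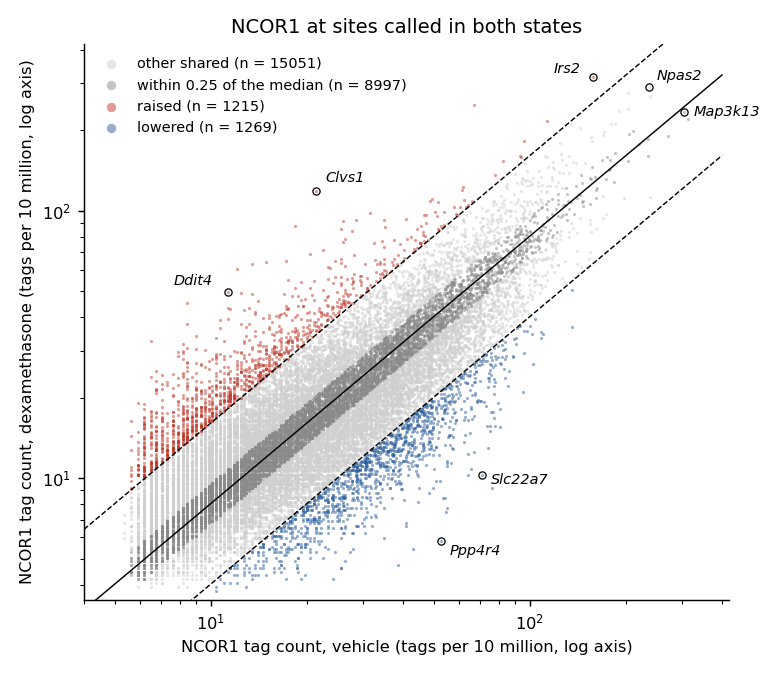
NCOR1 tag counts (normalized tag counts, log axes) under vehicle and dexamethasone at the 26532 shared sites, 1 point per site. The solid line is the median ratio and the dashed lines are 2-fold from it. Raised sites such as Clvs1 (118.7 against 21.4) lie above the upper dashed line and lowered sites such as Ppp4r4 (5.82 against 52.6) below the lower one.

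The strongest shared sites lay within 2-fold of the median ratio in 9 of 10 cases. The site in Map3k13, a kinase gene of the JNK pathway, had 233.5 tags under dexamethasone and 304.4 under vehicle, and the site 2.66 kb from Ptgds, a prostaglandin D synthase gene, had 220.8 and 313.1. Npas2, a clock transcription factor that pairs with BMAL1, had 289.9 and 236.3 tags, and this site was present in the dKO list at 124.8. The exception lay 44.6 kb from Irs2, the main insulin receptor substrate of liver. It had 316.1 tags under dexamethasone and 158.1 under vehicle, a centred log2 ratio of 1.31 (counting interval 1.13 to 1.51), beside GR at 64.6 and 31.1 tags. This Irs2 site was present in the dKO list at 60.4 tags, as were 9 of the 10 strongest shared sites.

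Among the 12 raised sites of largest ratio, GR accompanied NCOR1 at every one under dexamethasone and at 4 under vehicle. The largest lay 34.2 kb from Clvs1, a gene for a lipid-binding clavesin (chr4:9110438-9110638, mm10), with 118.7 NCOR1 tags under dexamethasone and 21.4 under vehicle. Its centred log2 ratio was 2.79 (2.31 to 3.31), with GR at 22.6 and 7.83 tags. The site was present in the dKO list at 12.3 tags.

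Ddit4 is a glucocorticoid-induced inhibitor of the mTOR growth pathway. The site 6.0 kb from it (chr10:59943576-59943776) had 49.7 NCOR1 tags under dexamethasone and 11.3 under vehicle, a centred log2 ratio of 2.45 (1.78 to 3.20). GR there had 52.0 tags under dexamethasone and no vehicle peak. Ptger3, a prostaglandin E2 receptor gene, had 43.2 and 11.3 NCOR1 tags at a site 72.0 kb away, with GR at 23.1 and 6.01. Sites by Cldn8, a tight-junction claudin, and Adcy3, an adenylyl cyclase, had 60.5 against 12.1 and 49.3 against 12.4 NCOR1 tags. In all 12, NCOR1 under dexamethasone was 11.6- to 63.7-fold over the local background and NCOR1 under vehicle, the weaker state, 7.0- to 19.8-fold. Over input the vehicle peak near Ddit4 was at 4.33-fold, close to the 4-fold limit.

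The 12 lowered sites of largest ratio showed the opposite GR pattern, with a GR peak at 11 under vehicle and at 1 under dexamethasone. The exception to a vehicle GR peak was the largest, in Ppp4r4, a regulatory subunit of protein phosphatase 4 (chr12:103609472-103609672). It had 5.82 NCOR1 tags under dexamethasone and 52.6 under vehicle, a centred log2 ratio of -2.86 (-3.64 to -2.19), and no GR peak in either state. Slc22a7, an organic anion transporter of hepatocytes, had 10.3 and 70.9 NCOR1 tags at a site 0.268 kb from its body, and GR at 22.0 tags under vehicle only. A site in Pgd, an enzyme of the pentose phosphate pathway, had 10.3 and 64.1 NCOR1 tags, with GR at 10.7 tags under vehicle only.

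Ier5, an immediate-early gene, had 10.8 and 65.5 NCOR1 tags at a site 32.2 kb away that was also in the dKO list (15.7 tags). Hif1an, which encodes the oxygen sensor FIH, and Lrig1, a brake on growth-factor receptors, had 7.72 against 55.1 and 8.40 against 53.4 NCOR1 tags at sites outside their bodies. At these 12 sites the dexamethasone peak was only 4.32- to 9.38-fold over the local 10 kb, 9 of them under 8-fold. The limit for a call was 4-fold.

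**Figure D2:**
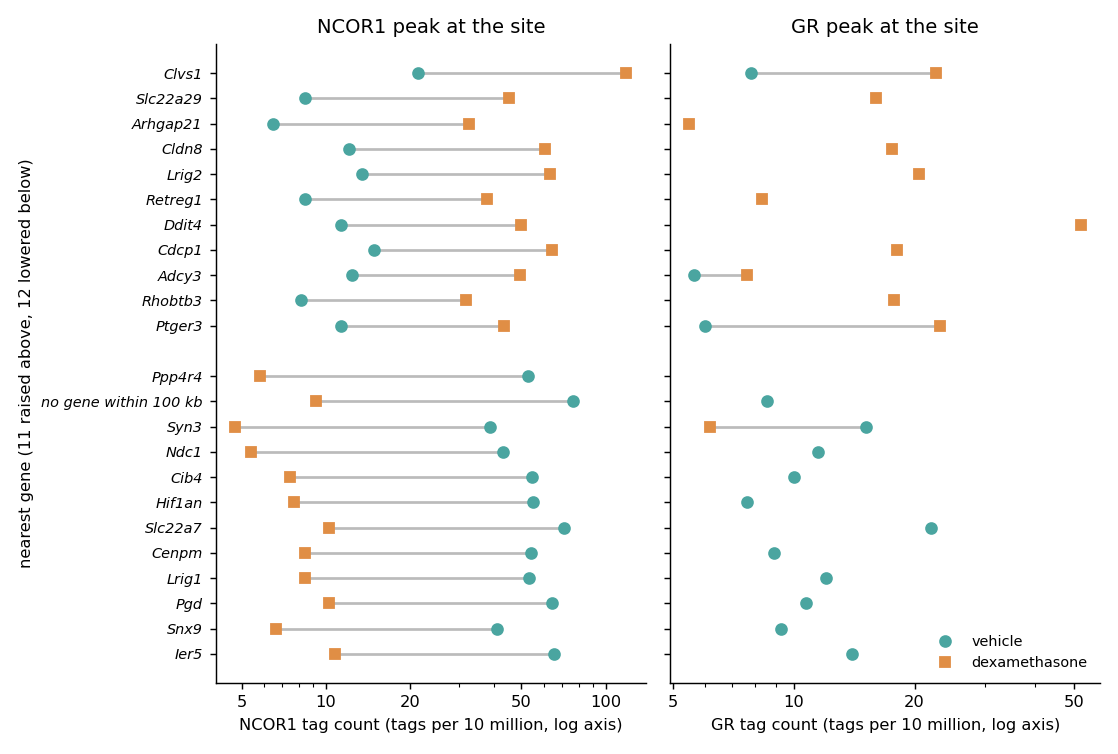
NCOR1 (left) and GR (right) normalized tag counts on log axes at 11 of the 12 raised and all 12 lowered shared sites of largest centred ratio. Circles are vehicle and squares dexamethasone, and a missing symbol means that no peak was called. All 11 raised sites plotted have a dexamethasone GR peak, and 11 of the 12 lowered sites have a vehicle GR peak.

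GR was measured in other libraries and did not enter the choice of sites, so its peaks were counted over whole classes. Under dexamethasone a GR peak lay at 74.9% of raised sites (exact 95% interval 72.4 to 77.3%), 58.3% of steady sites (within 0.25 of the median log2 ratio) and 49.1% of lowered sites (46.3 to 51.9%). Under vehicle the order was reversed, with 46.1%, 51.3% and 69.4%. GR peaks called under dexamethasone but not vehicle were at 30.9% of raised and 4.65% of lowered sites, and those called under vehicle but not dexamethasone at 2.14% and 25%. The intervals do not overlap, although they cover counting error only and neighbouring sites are not independent.

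Sites called in 1 state had fewer GR peaks than shared sites, but they were also weaker, and GR peaks were fewer at weak shared sites. In the weakest of 5 equal classes of NCOR1 strength, steady sites held a GR peak under dexamethasone in 41.0% and under vehicle in 28.7%. In the strongest class these shares were 78.2% and 76.3%. Dexamethasone-only sites held a GR peak under dexamethasone in 38% and under vehicle in 14.4%, while vehicle-only sites held one in 14.4% and 15.8%. At 2479 dexamethasone-only sites (25.6%) GR too was called under dexamethasone and not under vehicle. The mirror case, vehicle-only NCOR1 with GR called under vehicle alone, was found at 885 sites (7.91%). Over all shared sites these shares were 14.8% for GR under dexamethasone alone and 8.61% for GR under vehicle alone, so the vehicle-only share was near that background. A GR peak of the same state thus accompanied dexamethasone-only sites at a higher share than vehicle-only sites. The GR list under dexamethasone was also the longer one, with 40853 peaks against 30011 under vehicle.

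Where GR had a peak in both states, its own ratio was highest at raised and lowest at lowered sites. The median centred log2 GR ratio was 1.02 at 534 raised sites, 0.29 at 3980 steady sites and -0.29 at 564 lowered sites. GR was raised at least 2-fold at 51.3% of those raised sites, 5.83% of the steady and 0.177% of the lowered ones. Across 11774 shared sites Pearson's r between the 2 ratios was 0.54 and Spearman's rho 0.50. The points share chromatin accessibility and base composition, and the series lists 1 input library. Within 5 equal classes of NCOR1 strength r ranged from 0.45 to 0.60, and at the 9056 sites outside the dKO list it was 0.57.

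**Figure D3:**
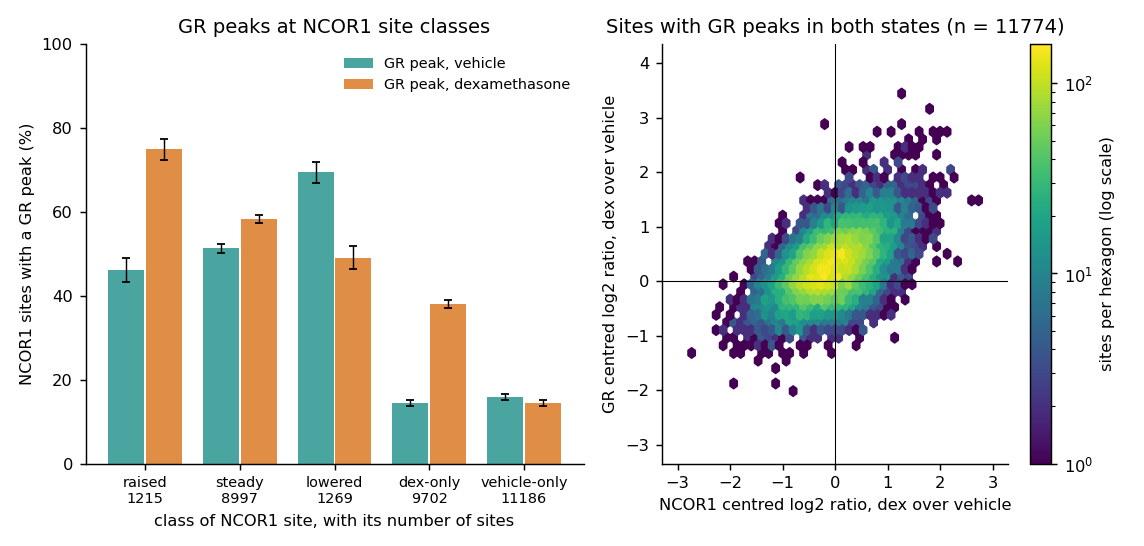
Left, the percent of NCOR1 sites of each class with a GR peak under vehicle or dexamethasone, with exact 95% intervals and the number of sites below. Right, the GR against the NCOR1 centred log2 ratio at 11774 sites, coloured by sites per hexagon. Raised sites have GR more often under dexamethasone (74.9% against 46.1%) and lowered sites under vehicle (69.4% against 49.1%).

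The 9702 dexamethasone-only sites were 25.7% of that list and the 11186 vehicle-only sites 28.3% of theirs. They were weak. Their median tag counts were 7.45 and 10.7, against 14.9 and 18.8 at shared sites, and 78.1% and 70.0% were under 8-fold over the local 10 kb. Of the strongest 20% of each list, 2.69% were dexamethasone-only and 6.65% vehicle-only, whereas of the weakest 20% these shares were 61.0% and 52.0%. With a minimum of 20 tags, a limit chosen after seeing the data, 345 dexamethasone-only and 1738 vehicle-only sites were left. The minimum applied to tag counts without centring, of which the strongest 20% began at 22.8 (dexamethasone) and 30.4 (vehicle). It was thus stricter for the dexamethasone list, and these counts cannot be compared directly.

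The strongest dexamethasone-only sites lay by single genes of differing function, and core clock genes as a list had 20.7% of their peaks in this class against 25.6% over all genes. Nr1d1, which encodes the NCOR1 partner REV-ERB alpha, had such a site in its body with 55.1 tags, and Nfil3, a repressor of the clock's output genes, had one at 48.2 tags. A vehicle peak lay 536 and 503 bp from these, just past the 500 bp limit, and local enrichment was 5.53- and 4.78-fold. Trp53inp1 encodes a p53-induced autophagy protein. A site 32.6 kb from it stood 6537 bp from the nearest vehicle peak, with 47.4 NCOR1 tags (17.3-fold over local) and GR at 371.0 tags under dexamethasone and 54.6 under vehicle. Near Pctp, a phosphatidylcholine transfer protein gene, a site of 46.5 tags held a GR peak of 42.6 tags under dexamethasone only. A vehicle NCOR1 peak lay 508 bp from this site, again just past the limit, and its local enrichment was 6.66-fold.

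Ephb2, which encodes an ephrin receptor, stood apart by the number of its sites. Of its 17 sites 14 were dexamethasone-only, with tag counts from 16.4 to 54.0 (median 30.3) over 180 kb, and 17.6- to 193.7-fold over input. None overlapped a GR peak of either state or a peak of the dKO list. The other sites were 1 vehicle-only site of 21.7 tags and 2 shared sites at 6.23 against 6.19 and 8.53 against 10.1 tags. The longest unbroken run of dexamethasone-only sites, 11 in a row over 62.5 kb, included Ephb2 and its neighbour Lactbl1. Which of the 2 pooled libraries carried these tags was not analysed here. The vehicle counterpart was Dab2ip, a Ras GTPase-activating gene, with 13 vehicle-only of 18 sites, all between 7.03 and 28.1 tags.

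**Figure D4:**
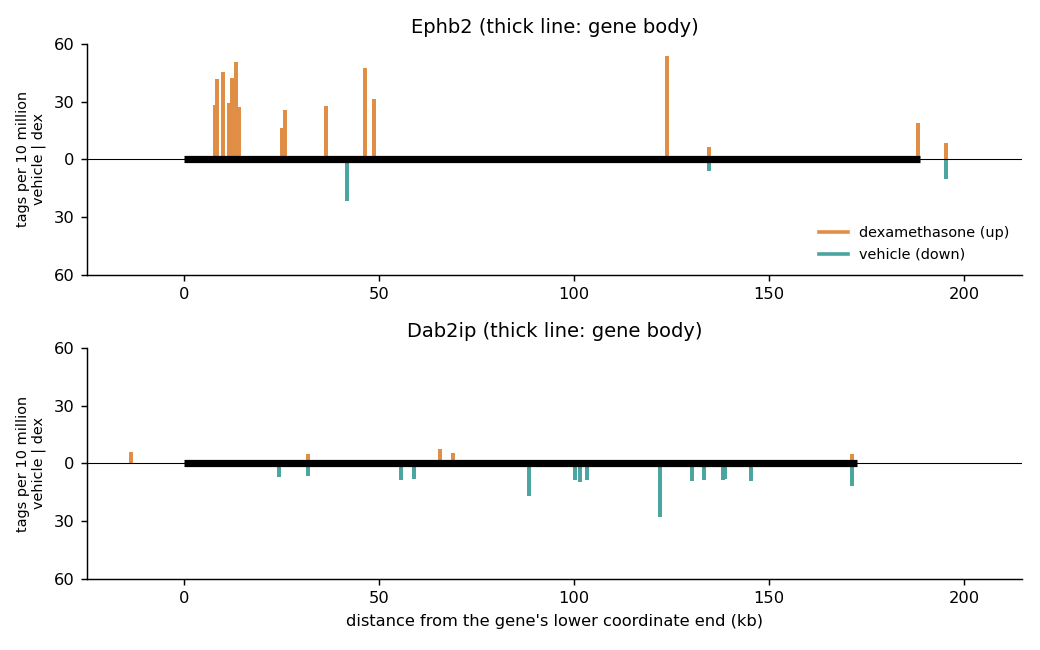
NCOR1 peaks assigned to Ephb2 and Dab2ip by distance from the gene's end with the lower coordinate (kb). Bars show normalized tag counts under dexamethasone (up) and vehicle (down). Ephb2 has 14 dexamethasone-only peaks of up to 54.0 tags, and Dab2ip has 13 vehicle-only peaks of up to 28.1 tags.

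Some strong vehicle-only sites lay at promoters, of which single examples follow. Over all their sites, plasma protein genes had 19.5% vehicle-only peaks against 28.7% over all genes. Fbp1, the gluconeogenic fructose bisphosphatase, had 72.3 tags at its promoter, 4.48 kb from the nearest dexamethasone peak, and GR was called there under vehicle at 14.0 tags. Igfbp1, an insulin-repressed growth-factor binding protein, had 59.4 tags, and Tat, the glucocorticoid-induced tyrosine aminotransferase, had 52.6 tags, neither with a GR peak. Mt2 had 51.8 tags and a GR peak under vehicle only of 38.4 tags. Further promoters of this kind were those of Slc27a2 (58.2), Apoc2 (53.2), Cyp2e1 (50.1), Apoe (48.9), Dbp (45) and Apoa1 (43.0). Igfbp4, another such binding protein, had 2 vehicle-only sites of 69.8 tags, and Nfic, a liver nuclear factor I gene, had 2 of 89.2 and 77.1 tags beside its dexamethasone-only site of 49.4.

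Over the 19 gene lists, 46 pairs of a promoter and a vehicle-only site were found, against 7 with a dexamethasone-only site, beside 1000 and 475 genes over all promoters. Of the 23 plasma protein genes with a promoter window, 7 had a window covered by a vehicle-only peak. Over all promoters the vehicle-only share was 5.72% and the dexamethasone-only share 2.72%. Promoters of both lists described here were also covered more often by any NCOR1 peak, 19 of 23 for plasma protein genes and 15 of 27 for glucocorticoid receptor targets against 3742 of 17492 genes. Of the 27 glucocorticoid receptor targets with a window, 7 had a window covered by a vehicle-only peak. They were Gadd45g, Igfbp1, Mt1, Mt2, Nfkbia, Per1 and Tat. Another 3 had a window covered by a dexamethasone-only peak (Fam107a, Fkbp5 and Sgk1). Over the 19 lists, the vehicle-only promoter peaks were 4.01- to 11.8-fold over the local 10 kb. The dexamethasone-only ones were 4.25- to 5.82-fold, against a limit of 4-fold. Whether the limit decided these calls was not tested. Of the 46 pairs 9 were in the dKO list.

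Fewer raised and lowered than steady sites lay close to a gene start, but by median distance only raised sites stood well apart from steady ones. A listed start lay within 1 kb of 6.95% of raised, 11.8% of lowered and 20.5% of steady sites, and of 12.1% of dexamethasone-only and 18.7% of vehicle-only sites. The median distance was 23.3 kb for raised, 14.3 kb for lowered and 13.2 kb for steady sites, and 14.2 kb over all shared sites. Close neighbours had like ratios: the centred ratios of adjacent shared sites had r = 0.42 over 2354 pairs within 2 kb, 0.18 over 8783 pairs at 5 to 20 kb and 0.03 over 4589 pairs more than 100 kb apart.

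A total of 12517 genes had a site within 100 kb. Of these, 946 had a raised and 996 a lowered site, and 96 had both. Only 25 genes had 3 or more raised sites. Pid1, whose product dampens insulin signalling in fat and muscle, had 4 among 17 sites. Thrb, the thyroid hormone receptor beta gene, a textbook NCOR1 partner, had 4 among 26. The Thrb sites had 43.5 against 25.6, 42.8 against 17.2, 15.7 against 9.28 and 23.2 against 10.4 tags under dexamethasone and vehicle. At the second of these GR had a vehicle tag count of 53.7 and a dexamethasone count of 141.0. Thrb also had 7 dexamethasone-only and 6 vehicle-only sites.

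Irs1, a substrate of the insulin receptor, had 3 raised among 14 sites. Pik3r1, the regulatory PI3-kinase subunit of the same pathway, had 3 among 30. Ppp1r3c, a glycogen-targeting phosphatase subunit, had 3 among 7, and Socs2, a feedback inhibitor of growth hormone signalling, 3 among 11. These genes were picked from the 25 with 3 or more. Akap13, Car1, Fars2 and Vwf, among others, also had 3. The Irs1 sites had 39.6 against 15.2, 18.1 against 6.19 and 85.3 against 51.5 tags. The Socs2 sites had 42.8 against 11.5, 20.3 against 9.0 and 63.1 against 30.4 tags. Pik3r1 in addition had 10 dexamethasone-only sites among its 30, the strongest with 27.2 tags and with GR at 62.8 tags under dexamethasone and 12.4 under vehicle. Pik3r1 also had 1 lowered site.

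Lowered sites numbered 3 or more at 37 genes. Gse1, a gene for a coregulator of the LSD1 complex, had 6 among 49 sites, with 14 vehicle-only and 2 raised. Zfpm1, which encodes the GATA cofactor FOG1, had 4 among 10. Cebpa, a master transcription factor of hepatocytes, had 3 among 11, at 26.8 against 102.4, 12.7 against 37.1 and 19.6 against 68.6 tags under dexamethasone and vehicle, the first of them with a dKO peak of 17.2 tags. Vegfa, Scarb1 and Smarca4 had 3 each, among 24, 20 and 10 sites.

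Gene lists were set beside all genes with a site, of whose shared sites 4.45% were raised and 4.84% lowered, and of whose peaks 25.6% were dexamethasone-only and 28.7% vehicle-only. Sites of 1 gene are not independent, and the lists were not tested. The counts of every list depend on the centring. Without it, lowered sites outnumbered raised ones in every list other than acute phase and inflammation, which had 7 of each, as they did over all genes (3016 against 364). The counts below are centred on the median, and the order of raised and lowered was the same when centred on the strongest 20% of sites and within 20 classes of strength unless stated.

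Insulin signalling and glycogen genes had the highest share of raised sites, 16 of 147 (10.9%) at 9 of 22 genes, against 6 lowered (4.08%). Insr, the insulin receptor gene, had the largest, 9.15 kb from its body. It had 29.8 tags under dexamethasone and 8.16 under vehicle, beside GR at 46.8 and 6.55. A site 63.8 kb from Ptpn1, the phosphatase that turns off that receptor, had 63.5 and 25.6 tags and was present in the dKO list (31.2). Lowered members included Pygl, liver glycogen phosphorylase (13.1 and 46.4), and Gsk3b, a kinase of glycogen synthase (15.6 and 41.1). Insr and Ptpn1 had lowered sites too, the former in its body at 15.7 and 45.3 tags, the latter at 16.1 and 48.7. Ptpn1 also had dexamethasone-only sites of up to 57.0 tags and vehicle-only sites of up to 69.2. The median centred log2 ratio of the list was 0.06.

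Acute phase and inflammation genes had 10 raised of 97 shared sites (10.3%) and 3 lowered (3.09%). The raised ones included 3 by Socs2 and single sites by Il6st, the shared receptor subunit of the IL-6 family (21.7 against 7.60 tags), and Il1rap, a subunit of the IL-1 receptor (46.7 against 19.7). Stat3, the factor that carries the IL-6 signal, had a lowered site 0.224 kb from its body at 6.50 against 25.6 tags. Glucocorticoid receptor targets divided evenly, with 8 raised and 8 lowered of 144 sites (5.56% each). The counts were 9 and 5 centred on the strongest sites and 8 and 7 within strength classes. Their raised sites included that of Ddit4 and 1 lying 17.7 kb from Gadd45g (47.7 against 23.1 tags, GR 198.3 against 33.5). Bcl6 had a raised site 91.8 kb away (40.6 against 18.6 tags, GR 141.7 against 58.4). In its body Bcl6 had a lowered site, at 22.6 against 63.6 tags (GR 7.16 against 15.5). Tsc22d3, which encodes the glucocorticoid-induced leucine zipper GILZ, and Klf9 had lowered sites, at 9.07 against 27.8 and 8.53 against 25.9 tags.

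Gluconeogenesis genes had 6 raised and 4 lowered of 104 sites. Single shared sites of some central genes lay near the median. The strongest shared site of Pck1 had 72.5 tags under dexamethasone and 97.3 under vehicle (centred log2 ratio -0.11) and that of G6pc 68.8 and 95.4 (-0.16). G6pc also had a dexamethasone-only site of 38.1 tags, 705 bp from the nearest vehicle peak. Fbp1 had a dexamethasone-only site of 24.1 tags beside its vehicle-only promoter peak. Ppargc1a, the fasting coactivator, had 33.0 and 38.3 tags (0.10). Sik1, a kinase that opposes the fasting program, had sites in both classes, from 56.9 against 29.5 to 9.75 against 52.3 tags. In amino acid catabolism 7 sites of 111 were raised and 2 lowered. The raised included sites 18.9 kb from the transporter gene Slc38a2 (27.2 against 12.4) and 57.9 kb from its relative Slc38a4 (16.7 against 7.03). Both of these sites were present in the dKO list. Slc38a4 also had a lowered site in its body, with 48.7 tags under vehicle and a centred log2 ratio of -1.38. Its promoter had a vehicle-only peak of 32.6 tags.

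Lipogenic genes had more lowered than raised sites, 12 (9.23%) against 5 (3.85%) of 130. Besides Mlxipl, lowered sites lay by Insig1, a brake on lipid synthesis (14.5 against 56.5 tags). Gpam, the first enzyme of triglyceride synthesis, had one of 8.13 against 29.5, and Acly, which makes cytosolic acetyl-CoA, one of 13.3 against 42.8. Fads1, a fatty acid desaturase, and Me1, malic enzyme, were among the raised, at 28.7 against 11.0 and 14.9 against 6.47 tags. Srebf1, the SREBP-1 gene, had 65.0 and 45.3 tags at its strongest shared site (0.84) and Thrsp, a thyroid-responsive lipogenic gene, 62.8 and 122.1 (-0.64). Fasn, fatty acid synthase, lay at the median with 36.0 and 44.4 tags (0.01). At these 3 sites the dKO list had 33.2, 17.2 and 20.9 tags.

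Fatty acid oxidation genes had 3 raised and 6 lowered of 94 sites. Bile acid and cholesterol genes had 4 of each among 114. For the latter the counts were 5 and 3 centred on the strongest sites and 4 and 3 within strength classes. Ppara, the fasting receptor for fatty acids, had lowered sites at 20.7 against 77.4 and 18.3 against 54.9 tags. Abcb11, the bile salt export pump, had a raised site at 24.4 against 7.03 tags, with GR at 17.6 against 5.64. The strongest shared site of Cyp7a1, which commits cholesterol to bile acids, had 85.9 and 66.4 tags (0.69).

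Core clock genes had 5 raised and 2 lowered of 83 sites. Cry1, a repressor of the clock, had 75.6 against 32.4 tags, and Rora, whose product competes with REV-ERB for its sites, had 217.1 against 113.1. Both sites were present in the dKO list, at 9.73 and 38.4 tags. The strongest shared sites of Arntl, the BMAL1 gene (108.6 and 100.4, centred 0.43), and Nr1d1 (82.6 and 113.9, -0.15) lay nearer the median, with dKO peaks of 93.9 and 74.7 tags. Thyroid hormone and LXR targets had 7 raised and 2 lowered of 91 sites, of which Thrb gave 4. Clock output genes had 1 raised and 2 lowered of 64, or 1 of each under both other centrings.

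Hepatocyte transcription factors had 19 lowered (8.33%) and 10 raised (4.39%) of 228 sites. Lowered sites lay in or by Klf10 (6.77 against 40.8 tags), Stat5b (12.3 against 48.4) and Cebpa, and raised ones by the nuclear factor I genes Nfia (32.5 against 12.7) and Nfib (32.0 against 17.4, with GR at 148.5 against 40.0). Corepressor complex genes had 8 lowered (8.70%) and 3 raised of 92 sites. Nrip1, the RIP140 corepressor gene, had a raised site of 76.3 against 25.9 tags, while Hdac4, a class II deacetylase, had a lowered one of 11.0 against 37.7. Nuclear receptor genes had 11 raised and 12 lowered of 200, an order that turned to 11 and 10 centred on the strongest sites and 12 and 10 within strength classes.

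Plasma protein and apolipoprotein genes had 1 raised and 3 lowered of 91 sites, and a median centred log2 ratio of -0.21. Centred on the strongest sites the order turned, with 4 raised and 2 lowered. The lowered sites were those of Apoa2, F10, a clotting factor gene (9.89 against 36.6 tags), and Alb, the albumin gene, 13.2 kb away (16.7 against 50.1). Cytochrome P450 genes had 6 raised and 2 lowered of 84 sites. Besides Cyp3a11, Cyp3a41a (77.1 against 34.3) and Cyp2b10 (25.6 against 14.9, with GR at 159.0 against 73.2) were raised, and Cyp2d26 (28.3 against 81.6) and Cyp2d22 (24.2 against 63.6) were lowered. Of the lists for other cells, endothelial, stellate and cholangiocyte markers had 3 raised and 1 lowered of 35 sites and neuronal genes, of a tissue not sampled, 0 and 2 of 17.

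**Figure D5:**
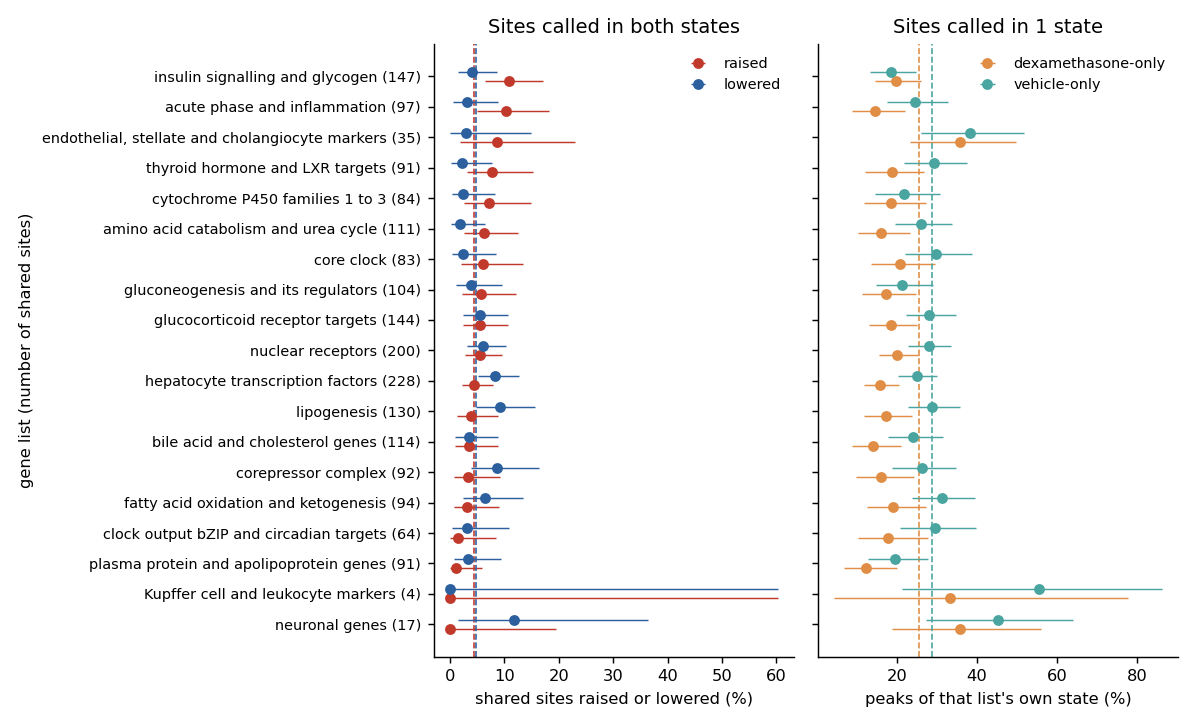
For each gene list, the percent of shared sites raised or lowered (left) and the percent of that state's own peaks near the list's genes called in that state alone (right). Points are shares with exact 95% intervals and dashed lines the shares over all genes. Insulin signalling (10.9%) and acute phase (10.3%) have the highest raised shares and lipogenesis (9.23%) has a higher lowered share than the other lists with 50 or more sites.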

How the data were processed

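ChIP-seq peaks for NCOR1 in control liver were compared between dexamethasone and vehicle. Reads were processed with BWA 0.7.17 on mm10 after Trim Galore 0.6.4, with HOMER 4.11 and bedtools 2.29.2 also named, per the submitters' processing notes. Peaks were called by HOMER with a width of 200 bp, per the file headers. The normalized tag count is a signal scaled to 10000000 tags per list and deposited by the authors. The fold over input and over local background is a ratio and the findPeaks score a score, both per the file headers. Tags were recovered from the normalized tag count and the list's total. Classes, ratios, exact binomial counting intervals (95%) and gene assignment to the nearest protein-coding body within 100 kb were computed with Python 3.11.15, numpy 2.4.6, pandas 2.3.3 and scipy 1.17.1, and checked on simulated data. GR ratios were centred on the median of 24576 shared GR pairs. Sites named are the 12 of largest ratio or tag count per class and the 10 strongest shared, genes with 3 or more sites of a class, up to 4 members per list and class, and 17 chosen genes. Members and lists were chosen with earlier results of these data known. With 1 pooled list per group no test between groups was made. Exons, introns and sequences away from promoters were not analysed here. Results for some genes are not reported here.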

Additional observations from a re-analysis of the deposited data

How the results depend on the processing

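No paired analysis was possible because each group is 1 deposited list with its libraries pooled, and for the same reason no replicate could be left out. Of 99 values recomputed under 15 settings, 67 stayed within the limits set and 32 moved. Among these values a reversal was looked for only in the GR share differences, which kept their sign. The order of raised and lowered counts, 1215 and 1269 as reported, did turn in some settings. Centred on the strongest 20% of sites they were 1588 and 963. The cause of the moves was not tested beyond each setting's own construction. The values as reported were a median log2 ratio of -0.31, differences in the share with a dexamethasone GR peak of 25.8 percentage points (raised minus lowered) and 23.6 (dexamethasone-only minus vehicle-only), and 70 raised, 69 lowered, 204 dexamethasone-only and 281 vehicle-only genes of the lists. Without centring, 404 sites were raised and 3231 lowered, at 36 and 143 list genes. Centring within 20 strength classes gave a raised minus lowered difference of 30.7 points. A 1.5-fold limit gave 4035 raised and 4215 lowered sites, a difference of 16.4 points, and 137 and 173 list genes. Asking for 8-fold enrichment in both lists left a median of -0.27, 349 raised, 268 lowered and 2661 dexamethasone-only sites, a dexamethasone-only minus vehicle-only difference of 18.2 points, and 26, 20 and 104 list genes. The median was -0.35 without sites of the dKO list, -0.33 with lists of equal length and -0.33 for the ratio of findPeaks scores, the last chosen after seeing the data. Genes within 10 kb left 46 raised list genes. With state-only sites at 8-fold in their own list, chosen after seeing the data, 1026 dexamethasone-only and 1814 vehicle-only sites remained, with a difference of 36.5 points and 37 and 59 list genes. With a minimum of 20 tags, also chosen after seeing the data, these were 345, 1738, 34.0 points, 37 and 148. That minimum applied to tag counts without centring and was stricter for the dexamethasone list. None of the 24 raised and lowered sites of largest ratio reversed in a setting that gave it a value. The lower vehicle depth, 17773927 against 36914937 tags, limits which weak sites could be called.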
